A study of Mus musculus with 10 samples.

Results

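The voltage-gated sodium channel genes described here were the 7 named subunit genes Scn1a, Scn2a, Scn3a, Scn8a, Scn2b, Scn3b and Scn4b, found in the deposited gene table by Ensembl identifier; all 7 were present among 22255 genes. RNA came from hippocampal synaptoneurosomes, a preparation of pinched-off, resealed synaptic compartments, of wild-type C57Bl/6J mice. One group had received vehicle and the other AM6545, a CB1 cannabinoid receptor antagonist with little access to the brain, over a sub-chronic course. Each group held 5 libraries, and the question here was whether sodium channel RNA in this fraction differed between drug and vehicle. The labels do not give the dose, age, sex or how many animals went into a library, so p-values measure the spread between these libraries, which may be technical. Library totals ranged from 18106112 to 25899794 estimated counts.

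Voltage-gated sodium channels open on depolarization and carry the rising phase of the action potential. The large alpha subunit forms the pore and by itself holds the voltage sensors and the inactivation gate, while the small beta subunits cross the membrane once, carry an immunoglobulin-like domain outside the cell, and tune gating and surface delivery. In hippocampal neurons the channels are densest at the axon initial segment and are also present along axons, in nerve terminals and, at low density, in dendrites. Scn1a encodes the alpha subunit best known from fast-spiking interneurons, Scn2a and Scn8a those of excitatory axons, and Scn3a one that is most abundant before birth. Scn2b and Scn4b encode beta subunits that are joined to the alpha subunit by a disulfide bond, and Scn3b one that binds without such a bond.

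Alternative exons of the alpha genes are shown first, because the transcript table divides each gene's counts between transcripts that differ in them. The best known is a pair of near-identical exons in the first domain, of which a complete coding transcript carries only one copy; the upstream copy is known as the neonatal form and the downstream copy as the adult form. In the GENCODE M21 annotation of GRCm38 both copies are coding exons of 92 bases in Scn2a and in Scn8a. The second copy lies at chr2:65682690-65682781 in Scn2a and at chr15:100959603-100959694 in Scn8a, both on the plus strand. The second copies were read from the M21 transcripts and are shown to let the 2 genes be compared, with capitals at the bases where they differ.
Scn2a second copy: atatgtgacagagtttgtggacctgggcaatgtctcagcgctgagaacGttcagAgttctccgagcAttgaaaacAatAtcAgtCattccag
Scn8a second copy: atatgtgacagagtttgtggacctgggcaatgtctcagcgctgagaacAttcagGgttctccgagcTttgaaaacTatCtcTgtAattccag
They differed at 7 of 92 bases and were 92.4% identical.

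A second kind of difference is a longer or shorter end of one coding exon in the loop between the first and second domains. The longer form of Scn1a adds 33 bases, and the longer form of Scn8a adds 30 bases at chr15:100984046-100984075 on the plus strand. Both lengths are multiples of 3 and keep the reading frame, and the main Scn1a and Scn8a transcripts differ in these segments.
Scn8a segment: gtgaaaatagataaggcagctacagacagt
Another kind is an exon of 64 bases in Scn1a, at chr2:66293832-66293895 on the minus strand, that occurs in 1 annotated transcript, Scn1a-208, which GENCODE classes as subject to nonsense-mediated decay. Its length is not a multiple of 3; an exon whose inclusion breaks the reading frame in this way is called a poison exon.
Scn1a exon: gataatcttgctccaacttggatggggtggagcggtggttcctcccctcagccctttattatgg

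Every one of the 7 genes was expressed in all 10 libraries, on 110 counts or more. Levels of different genes were compared per length, as TPM, a share of each library scaled by transcript length, computed from the transcript table and the annotated transcript lengths. Scn2a had 59.0 ± 7.04 TPM with vehicle and 57.6 ± 7.33 TPM with AM6545 (SD of 5 libraries), the highest mean level of the 7. Scn3b followed with 56.1 ± 12.5 and 55.5 ± 3.68 TPM, and Scn1a with 52.9 ± 4.57 and 48.8 ± 5.59 TPM. The next was Scn8a, with 37.2 ± 2.90 and 36.4 ± 6.22 TPM.

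The order of neighbouring genes was clear only in part. In TPM, Scn2a exceeded Scn3b in 7 of 10 libraries and Scn3b exceeded Scn1a in 7 of 10. Neither pair of neighbours differed in TPM beyond the spread between libraries. Scn2a exceeded Scn1a, which is not its neighbour in the order, in 9 of 10 libraries. Scn1a exceeded Scn8a in 10 of 10 libraries, but this order rests on how length is counted. A transcript of 1690 bases, Scn1a-206, whose coding sequence is annotated as incomplete at its 3′ end, weighs heavily in the TPM of Scn1a; with the gene count divided by the length of the leading transcript alone, Scn1a had 12.6 ± 1.27 CPM per kilobase (CPM being the count scaled to the library total) and Scn8a 16.3 ± 2.01 (SD, n = 10 libraries). Scn2a remained above both by that measure, at 25.6 ± 2.42. Scn3b, at 24.7 ± 3.63, was also above both, so its nearness to Scn1a in TPM likewise rests on how length is counted.

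In TPM, Scn2b, Scn3a and Scn4b were the lower members of the family. Scn2b had 28.6 ± 3.84 TPM with vehicle and 27.0 ± 2.22 TPM with AM6545, Scn3a 7.72 ± 1.11 and 7.74 ± 0.603 TPM, and Scn4b 4.06 ± 1.61 and 4.23 ± 1.16 TPM (SD of 5 libraries). By that measure Scn8a exceeded Scn2b in 9 of 10 libraries, Scn2b exceeded Scn3a in 10 of 10, and Scn3a exceeded Scn4b in 10 of 10. With the gene count divided by the length of the leading transcript, Scn2b was above Scn1a. The values were 14.6 ± 2.07 and 12.6 ± 1.27 CPM per kilobase (SD, n = 10 libraries), so the place of Scn2b below Scn1a also depends on the measure. Of the summed TPM of the 4 alpha genes, Scn2a held 37.5 ± 2.06% with vehicle and 38.3 ± 1.251% with AM6545. Scn1a held 33.8 ± 2.80% and 32.5 ± 0.932%, Scn8a 23.7 ± 0.662% and 24.1 ± 1.88%, and Scn3a 4.90 ± 0.374% and 5.17 ± 0.326% (SD of 5 libraries). These shares also carry the weight of Scn1a-206. Per kilobase of the leading transcript, Scn1a was below Scn8a, at 12.6 ± 1.27 against 16.3 ± 2.01 CPM (SD, n = 10 libraries), so the shares and their order depend on the measure.

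**Figure D1:**
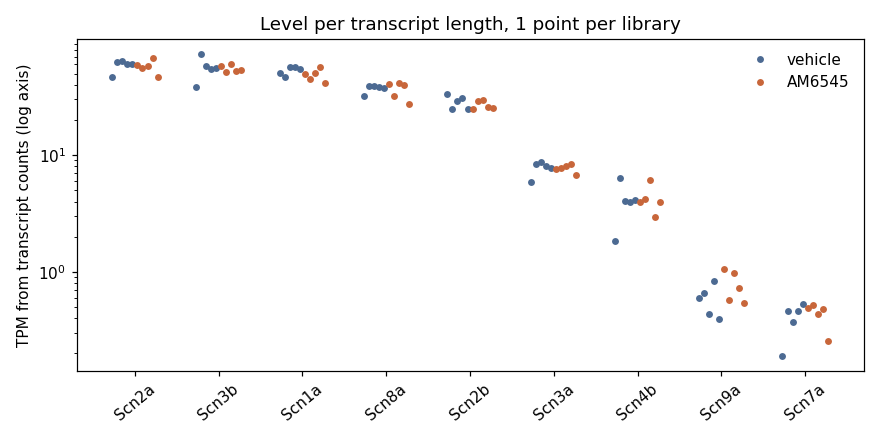
Level per transcript length (TPM computed from transcript counts, log axis) of the 7 subunit genes and of Scn7a and Scn9a, with 1 point per library coloured by group. Scn2a, Scn3b and Scn1a overlap and together span 38.3 to 73.6 TPM, while Scn3a and Scn4b lie at 8.65 TPM or below.

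With edgeR's quasi-likelihood test, 0 of the 7 subunit genes differed between AM6545 and vehicle libraries at a Benjamini-Hochberg adjusted p under 0.05, and 0 had an unadjusted p under 0.05. Over all 14358 genes tested, 0% passed the adjusted threshold and 1.88% had an unadjusted p under 0.05. DESeq2's Wald test and limma-voom with quality weights also called 0 of the 7. All 7 passed the filter on low counts, and for 0 of the 7 were the groups without overlap, as they were for 0.293% of all genes. Their median log2 fold change was -0.05, against -0.0057 over all genes tested, and 1 of the 7 was above 0, where 48.1% of all genes were. In a bulk preparation of this kind, a difference in the share of material from one cell type and a difference in its RNA content cannot be told apart.

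The 4 alpha genes are given as CPM scaled by TMM factors, which adjust for differences in composition between libraries, in the order of replicates 1 to 5. Scn2a had 214.4, 198.3, 245.6, 242.6 and 232.5 CPM with vehicle, and 226.5, 223.1, 232.7, 244.5 and 168.7 CPM with AM6545. The groups overlapped, and AM6545 replicate 5 was the lowest library of all. Its log2 fold change was -0.05 (SE 0.11, edgeR unadjusted p = 0.659, adjusted p = 0.9998), and its 95% interval ran from 0.824-fold to 1.13-fold.

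Scn8a had 189.1, 162.0, 206.8, 199.7 and 186.5 CPM with vehicle, and 195.7, 166.6, 211.8, 190.9 and 127.9 CPM with AM6545. Both the highest and the lowest library were AM6545 libraries, replicates 3 and 5. AM6545 over vehicle gave a log2 fold change of -0.08 (SE 0.12, edgeR unadjusted p = 0.526), with an interval from 0.788-fold to 1.13-fold.

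Scn1a had 108.0, 83.8, 114.5, 115.7 and 108.1 CPM with vehicle, and 99.0, 97.1, 113.0, 108.5 and 81.7 CPM with AM6545. Vehicle replicate 2 and AM6545 replicate 5 lay below the other 8 libraries. The fitted log2 fold change was -0.09 (SE 0.11, edgeR unadjusted p = 0.453), with an interval from 0.799-fold to 1.11-fold.

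Scn3a had 30.1, 34.2, 39.5, 37.0 and 34.0 CPM with vehicle, and 33.2, 34.2, 37.1, 37.5 and 28.4 CPM with AM6545. The lowest libraries were again AM6545 replicate 5 and, for this gene, vehicle replicate 1. The estimated log2 fold change was -0.04 (SE 0.11, edgeR unadjusted p = 0.732), with an interval from 0.836-fold to 1.14-fold.

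Among the beta subunits, Scn2b had 78.8, 46.8, 62.2, 65.5 and 50.1 CPM with vehicle, and 50.2, 60.8, 62.1, 53.2 and 51.0 CPM with AM6545. Vehicle libraries held both ends of the range, replicate 1 at the top and replicate 2 at the bottom. Of the AM6545 libraries, 0 of 5 lay above the vehicle median of 62.2 CPM, but replicate 3 was just below it at 62.1 CPM. A log2 fold change of -0.13 was estimated (SE 0.13, edgeR unadjusted p = 0.330), with an interval from 0.754-fold to 1.11-fold. It was -0.019 without vehicle replicate 1, -0.21 without vehicle replicate 2 and -0.054 with limma-voom and quality weights.

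Scn3b had 76.8, 126.0, 109.3, 103.2 and 99.4 CPM with vehicle, and 102.8, 98.6, 113.5, 97.2 and 96.8 CPM with AM6545. The ends were the same 2 vehicle libraries as for Scn2b, with their places exchanged. Its log2 fold change was -0.02 (SE 0.12, edgeR unadjusted p = 0.884), with an interval from 0.834-fold to 1.17-fold.

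Scn4b, whose product has an intracellular tail known for blocking the open pore and giving resurgent current, had 5.34, 14.8, 10.7, 10.4 and 10.3 CPM with vehicle, and 9.79, 10.9, 15.9, 7.45 and 9.79 CPM with AM6545. It was the most variable of the 7 genes, 2.98-fold higher in AM6545 replicate 3 than in vehicle replicate 1. AM6545 over vehicle gave a log2 fold change of 0.06 (SE 0.23, edgeR unadjusted p = 0.808), with an interval from 0.739-fold to 1.47-fold, the widest of the 7. With limma-voom and quality weights the sign was the opposite, at -0.18 (unadjusted p = 0.313).

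For the 6 other genes the 95% intervals of the difference ended between 0.754-fold and 0.836-fold on the lower side and between 1.11-fold and 1.17-fold on the upper side. A difference inside those bounds could not be told from the spread between these libraries. Without AM6545 replicate 5, Scn2a, Scn3a, Scn8a and Scn3b had log2 fold changes of 0.03, 0.02, 0.02 and 0.00061, so that 5 of the 7 genes were above 0 instead of 1.

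**Figure D2:**
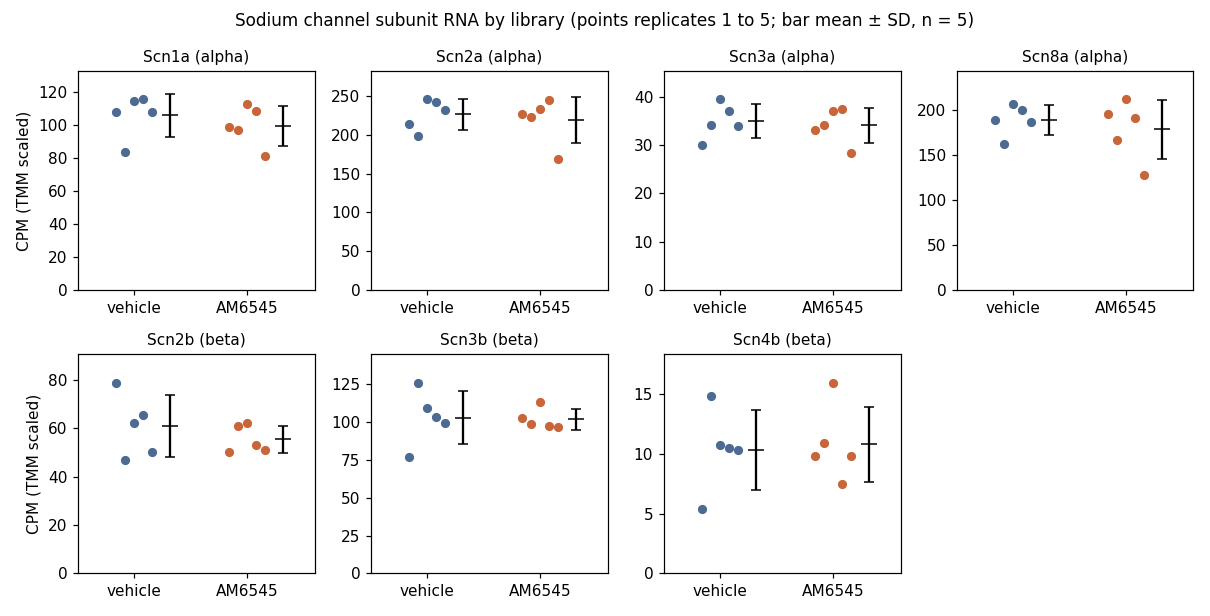
CPM scaled by TMM (linear axis from 0) of the 7 subunit genes in each library, with replicates 1 to 5 from left to right and the mean ± SD of 5 libraries beside them. The groups overlap in every panel, and AM6545 replicate 5 is the lowest point for Scn1a, Scn2a, Scn3a and Scn8a.

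**Figure D3:**
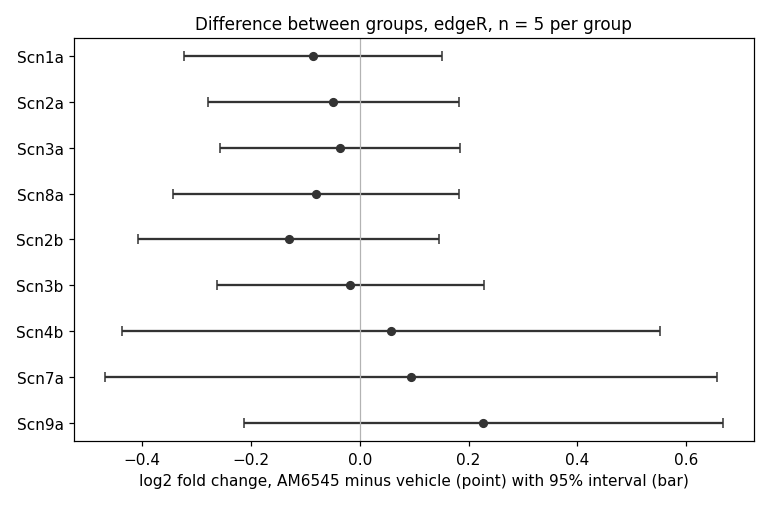
Log2 fold change of AM6545 over vehicle (points) with 95% intervals from edgeR (bars) for the 7 subunit genes and for Scn7a and Scn9a. Every interval includes 0; for Scn2a it runs from -0.28 to 0.18.

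Between libraries, the alpha genes had their low point in common. Of the beta genes, Scn3b and Scn4b shared a different low point, and Scn2b did not share it. AM6545 replicate 5 was the lowest of the 10 libraries for all 4 alpha genes, at 69.6% of the mean of the 10 libraries for Scn8a, 75.7% for Scn2a, 79.4% for Scn1a and 82.3% for Scn3a. The 4 alpha genes have long leading transcripts of 8116 to 11232 bases, and in the same library the median of 769 genes with leading transcripts of 7000 bases or more was -0.13 on the log2 scale relative to the mean of the 10 libraries, the lowest of any library. That median was highest in AM6545 replicate 2, at 0.11. In AM6545 replicate 2, Scn8a, Scn1a, Scn3a and Scn2a lay at -0.14, -0.08, -0.01 and 0.0013 on the same scale. The part of transcript length in the low alpha values of AM6545 replicate 5 was not tested.

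The beta genes took another course. Vehicle replicate 1 was the lowest library for Scn3b and Scn4b, at 75.1% and 50.7% of the mean, and the highest for Scn2b, at 135.7%. That library also had a median of 0.33 on the log2 scale over 2929 genes with leading transcripts under 2000 bases, where the other 9 libraries lay between -0.17 and 0.03. The part of this shift in the beta values was not tested, and the leading transcripts of Scn2b, Scn3b and Scn4b, at 3958, 4150 and 4982 bases, fall in neither length class.

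**Figure D4:**
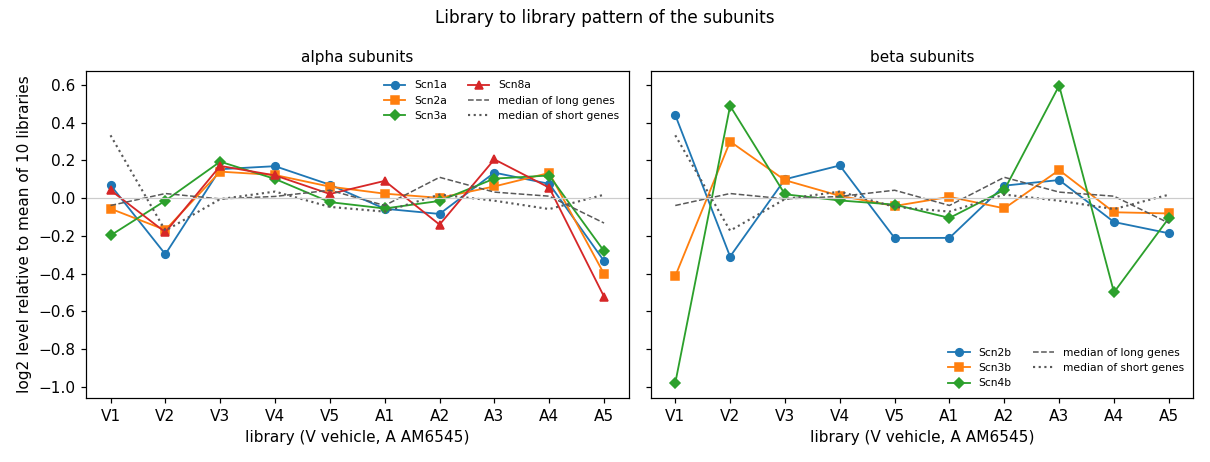
Level of each subunit gene in each library relative to its mean over the 10 libraries (log2 scale), alpha genes on the left and beta genes on the right, with the medians of 769 long and 2929 short genes as dashed and dotted lines. The alpha genes share their low point in AM6545 replicate 5, and in vehicle replicate 1 Scn2b lies at 0.44 while Scn4b lies at -0.98.

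The genes with a pattern most like Scn2a over the 10 libraries were Kcnma1, the pore subunit of the large-conductance calcium-activated potassium channel, Adgrl3, the adhesion receptor latrophilin, Adam23, a membrane partner of secreted LGI1, and the protocadherins Pcdh19 and Pcdh7. Their Pearson r of log2 CPM with Scn2a was 0.98, 0.96, 0.96, 0.95 and 0.95 over n = 10 libraries, and their Spearman rho 0.98, 0.90, 0.94, 0.68 and 0.65. They were picked as the 5 highest r of all genes tested, so no test was made, and the libraries share the depth and length differences given above.

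At the transcript level the table listed 53 annotated transcripts of the 7 genes, and 43 of them received counts in some library, with 24 past the filter. With edgeR's quasi-likelihood test 0 of the 24 had an adjusted p under 0.05 and 0 an unadjusted p under 0.05, against 0.00314% and 1.97% of 31848 transcripts tested. The 1 transcript called overall was Srrm1-202, of a splicing factor gene, named here after its values were seen, and DESeq2's Wald test called 11 transcripts, 0 of them from these genes. The groups did not overlap for 0 of the 24 transcripts and for 0.578% of all transcripts.

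The share of a gene's counts held by its larger transcripts was compared for 13 transcripts that held at least 10% of their gene's counts. Of these, 0 had an adjusted p under 0.05 in two-sided exact permutation tests over all arrangements of the libraries, where the smallest p possible is 0.00794. The smallest exact permutation p was 0.0794, for Scn1a-206, with 29.6 ± 1.74% of Scn1a counts with vehicle and 26.9 ± 2.46% with AM6545 (SD, n = 5 each; adjusted p = 0.660).

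Scn8a was the gene whose counts were split least evenly from library to library. Scn8a-205, which carries the second copy of the exon pair, was at 0 counts in vehicle replicate 1, with 1759 to 4080 elsewhere. Scn8a-204, with the second copy and the segment of 30 bases, was at 2404 counts in that library, with 328 to 1411 elsewhere. Scn8a-201, with the first copy, had 1442, 0, 1335, 1602 and 281 counts in vehicle and 258, 323, 299, 303 and 444 counts in AM6545 libraries. The gene totals, given in CPM above, did not share these jumps.

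In terms of the exon pair described above, the first copy of Scn8a was on 37.6, 10.5, 33.9, 33.4 and 6.77% of the counts of transcripts that carry either copy in vehicle libraries, and on 11.8, 10.4, 8.44, 11.05 and 17.9% in AM6545 libraries. Vehicle replicates 1, 3 and 4 lay above all AM6545 libraries and vehicle replicates 2 and 5 among or below them, so the groups overlapped. This share was chosen for display after its values were seen and was not tested; for Scn8a-201 alone the share was 22.0 ± 17.3% with vehicle and 9.34 ± 4.73% with AM6545 (SD of 5 libraries; exact permutation p = 0.159, adjusted p = 0.660). Its log2 fold change was -1.48 (SE 0.98, edgeR unadjusted p = 0.161), and -1.80 without vehicle replicate 2 (unadjusted p = 0.0039, adjusted p = 0.9997). With the replicate number as a block it was -0.81 (unadjusted p = 0.624). Scn8a-201 and Scn8a-204 also have noncoding first exons of their own, so their estimates draw on reads outside the alternative exons.

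For Scn2a nearly all counts went to transcripts with the first copy. Scn2a-202 alone held 93.2 ± 3.04% of Scn2a counts with vehicle and 95.8 ± 1.27% with AM6545 (SD of 5 libraries; exact permutation p = 0.103, adjusted p = 0.660). Among transcripts with either copy, the first copy was on 92.9 to 97.7% of counts, not scaled by length, over the 10 libraries. Apart from Scn2a-203, a retained-intron transcript with both copies, M21 holds the second copy in 2 transcripts. These are Scn2a-204, of 1810 bases and with an incomplete coding sequence, and Scn2a-205, of 6348 bases against 8690 in Scn2a-202. Scn2a-205 drew 6.01 counts in AM6545 replicate 4 and 0 in the others, and Scn2a-204 drew the rest. As Scn2a-204 is much shorter than Scn2a-202, the share of the first copy would be lower if counts were scaled by length. How far the transcript ends rather than the exon pair set this split was not tested.

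The longer form of the Scn1a exon, with the segment of 33 bases, was on 58.6, 48.8, 46.3, 44.6 and 56.8% of the counts of transcripts with either form in vehicle and on 40.1, 53.2, 40.1, 50.5 and 52.4% in AM6545 libraries. Neither form was the larger one in every library. Scn1a-201, the shorter form, held 34.2 ± 4.65% of Scn1a counts with vehicle and 38.1 ± 5.54% with AM6545 (SD of 5 libraries; exact permutation p = 0.254), and Scn1a-203, the longer form, 35.6 ± 4.17% and 34.1 ± 4.51% (exact permutation p = 0.595). These transcripts also differ in their first exon. The longer Scn8a form was on 6.61 to 62.5% of counts, and its highest value was again that of vehicle replicate 1.

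**Figure D5:**
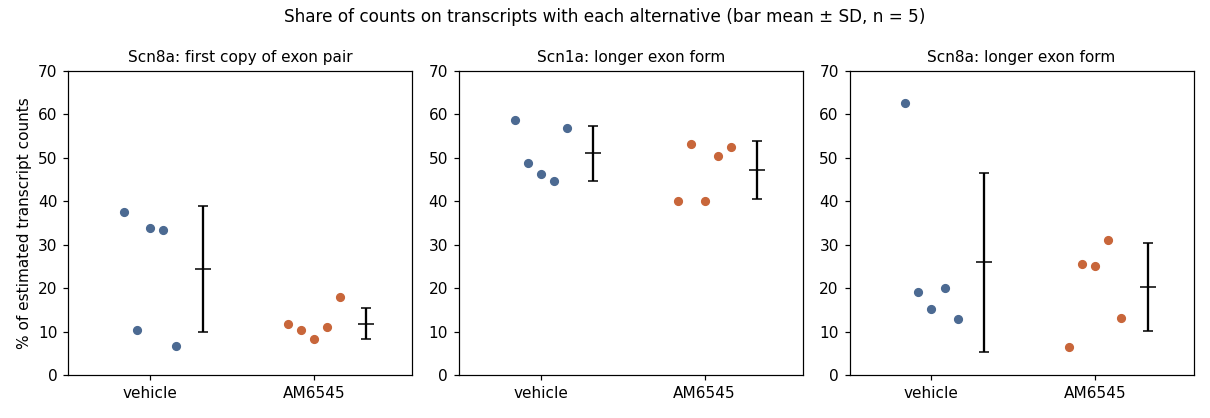
Share of estimated transcript counts (%, axis from 0) on transcripts with the first copy of the Scn8a exon pair, the longer Scn1a exon form and the longer Scn8a exon form, with 1 point per library and the mean ± SD of 5 libraries. The Scn8a shares range from 6.77 to 37.6% and from 6.61 to 62.5%, and the Scn1a share from 40.1 to 58.6%.

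Scn1a-208, the transcript with the exon of 64 bases, was detected in every library, at 4.19, 10.1, 5.66, 23.3 and 13.2 counts in vehicle and 33.2, 4.76, 10.4, 12.4 and 7.67 counts in AM6545 libraries. It made up 0.189 to 1.30% of Scn1a counts, and the groups overlapped. The fitted log2 fold change was 0.27 (SE 0.54, edgeR unadjusted p = 0.625). This transcript also differs from the others in its first exon and in its 3′ part, so its counts are not those of the exon alone.

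The larger transcripts of Scn2b, and likewise those of Scn3b, have the same coding sequence of 645 bases and differ outside it. Scn2b-201 held 89.2 ± 4.13% of Scn2b counts with vehicle and 89.4 ± 2.001% with AM6545, and Scn3b-201 held 55.7 ± 7.58% and 57.3 ± 4.73% of Scn3b counts (SD of 5 libraries; exact permutation p = 1 and p = 0.683). Scn3b-203 held 26.6 ± 3.65% and 27.8 ± 2.71%, and Scn4b has 1 annotated transcript. For Scn3a, Scn3a-202 held 87.3 ± 11.98% and 91.7 ± 4.67% (SD of 5 libraries; exact permutation p = 0.460).

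Among other genes of the family, Scn9a, known from peripheral sensory neurons, had 2.26 ± 0.585 CPM with vehicle and 2.66 ± 0.400 CPM with AM6545, with a log2 fold change of 0.23 (SE 0.21, edgeR unadjusted p = 0.290). Scn7a, a sodium-sensing relative, had 1.52 ± 0.435 and 1.63 ± 0.400 CPM, with a log2 fold change of 0.09 (SE 0.27, edgeR unadjusted p = 0.726, SD of 5 libraries for these genes). The muscle gene Scn4a and the sensory neuron genes Scn10a and Scn11a had at most 4 counts in any library.

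The wider set of genes that place, modulate or complement the channels was taken from lists of 40 genes, of which 38 were tested, and 0 passed the adjusted threshold in either direction with edgeR. Their median log2 fold change was 0.0020, and 20 of the 38 were above 0. The anchors and node proteins, such as ankyrin-G, spectrins and neurofascin, had 7 of 10 genes above 0 with a median of 0.04, the intracellular FGFs that bind the channel tail 2 of 4 with a median of 0.000032, and the genes for turnover and modulation 7 of 12 with a median of 0.0095. The sodium pump had 2 of 6 genes above 0 with a median of -0.02, the sodium leak channel complex 1 of 3 with a median of -0.03, and the secretases that cleave beta subunits 1 of 3 with a median of -0.10.

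One of the 38 had an unadjusted p under 0.05, near the 1.88% seen over all genes. This was Sptbn4, which encodes the beta-IV spectrin that ties ankyrin-G and the sodium channels to the actin cytoskeleton at the axon initial segment, with 21.9 ± 3.53 CPM with vehicle and 26.4 ± 1.03 CPM with AM6545 (SD of 5 libraries), and a log2 fold change of 0.27 (SE 0.11, edgeR unadjusted p = 0.0273, adjusted p = 0.9998). Exons of Gm20479 and Gm44924 overlap 1.401% and 2.54% of its exon bases. The next 5 by p were Prkaca, a catalytic subunit of protein kinase A (log2 fold change 0.24), Gpd1l, an enzyme related to glycerol-3-phosphate dehydrogenase (0.19), the pump subunit Atp1b2 (0.18), the secretase subunit Psen2 (-0.15) and Rangrf, a trafficking factor (-0.18), with edgeR unadjusted p from 0.126 to 0.271. Slc25a35 overlaps 90.7% of the exon bases of Rangrf on the opposite strand, so that value is uncertain.

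Markers of neurons and of other cells were present in both groups. Excitatory neuron markers summed to 2134 to 2589 CPM in vehicle and 2327 to 2591 CPM in AM6545 libraries, and inhibitory neuron markers to 739 to 990 and 752 to 1010.3 CPM. Oligodendrocyte markers summed to 14659 to 21239 and 12464 to 28622 CPM, astrocyte markers to 2013 to 2595 and 1993 to 3020 CPM, oligodendrocyte precursor markers to 198.9 to 252.5 and 185.8 to 271.5 CPM, and microglia markers to 515 to 684 and 486 to 677 CPM. Endothelial and pericyte markers summed to 72.5 to 153 and 74.8 to 132 CPM, red blood cell markers to 285 to 896 and 329 to 1334 CPM, and choroid plexus and ependymal markers to 78.9 to 4924 and 655 to 3943 CPM. All 68 listed markers passed the filter and 0 passed the adjusted threshold with edgeR. An unadjusted p under 0.05 was seen for 1 of the 68, against 1.88% of all genes tested. It was the astrocyte marker Aldh1l1, named after its values were seen (log2 fold change 0.27, edgeR unadjusted p = 0.0147, adjusted p = 0.9998). Of the 7 astrocyte markers, 5 were above 0, with a median of 0.06. The part of all these cell types in the levels of the sodium channel genes was not tested.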

How the data were processed

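The authors deposited a gene table and a transcript table of estimated counts, not scaled between libraries; the unit was read from the values, of which 38.6% and 41.6% were not whole. The submitters' processing notes name Salmon 1.5.2 and mm10; the annotation release and the use of strand are not given in the sources used here. Group and replicate came from the titles, and 22155 of 22255 genes received a symbol by identifier without version. GENCODE M21 (GRCm38) gave transcript names, lengths, exons and sequences for 101527 of 102392 transcripts; only 11 gene identifiers had the same version there, so the annotation used for counting may differ. Each member's gene count equalled the sum of its listed transcripts except for Scn3a, where they differed by at most 19.4 counts. No exon of the 7 genes overlapped another gene's exon in M21, and 0% to 9.46% of the 31-base words of a member occurred in another family gene.

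Counts were rounded and tested with edgeR 4.0.16 (R 4.3.3; TMM, filterByExpr, robust quasi-likelihood, group only, all 10 libraries), with p-values adjusted over all genes or transcripts; the 95% intervals come from the same fit. DESeq2 1.42.0, limma 3.58.1 and other alternatives are given at the end. Shares of transcripts were compared by two-sided exact permutation tests in Python 3.11.15 with numpy 2.4.6 and scipy 1.17.1. The scripts were tested on simulated data, with changes set among features of higher counts. Of the changed genes, 12% were called at a 1.25-fold change and 80% at 1.5-fold. Of the changed transcripts, 8% were called at 1.5-fold and 54% at 2-fold, so small changes would mostly be missed. Amplified reads are not independent molecules, and the error of dividing reads between transcripts is not in the standard errors. Named were all 7 members, family genes past the filter (some are not reported here), the 6 partner genes of smallest p, the 5 genes most like Scn2a and transcripts with at least 10% of their gene's counts; the alternative exons, Scn1a-208 and Scn2a-204 were added after their values were seen. The members and lists were chosen with earlier results of these data known.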

Additional observations from a re-analysis of the deposited data

Results flagged for a closer look

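Among 48 groups of 5 values, for 11 genes and 13 transcript shares, 5 had a library that stood apart from the other 4; chance gives about 1 in 20. Scn2a in AM6545 replicate 5 had 168.7 CPM against 223.1 to 244.5 CPM elsewhere in its group, the same library in which all 4 alpha genes were lowest. Scn1a in vehicle replicate 2 had 83.8 CPM against 108.0 to 115.7 CPM. Scn9a in AM6545 replicate 1 had 3.34 CPM against 2.33 to 2.60 CPM. Scn8a-204 held 61.7% of Scn8a counts in vehicle replicate 1, the 4 others being at 12.7 to 19.9%. Scn3b-201 held 65.4% of Scn3b counts in AM6545 replicate 2 against 53.1 to 56.6%.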

How the results depend on the processing

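No subunit gene, partner gene or member transcript passed the adjusted threshold in any other setting run, and no share of a transcript did with any 1 library left out. Over all genes the count was 1 with limma-voom and quality weights (Insc) and 0 to 1 with 1 library left out, against 0: Gm28048 was called without vehicle replicate 3 and Insc without AM6545 replicate 3, both named after their values were seen. Over all transcripts it was 11 with the DESeq2 Wald test, 0 with at least 10 counts in every library, 0 with the replicate number as a block and 0 to 4 with 1 library left out (2 without vehicle replicate 2, 2 without AM6545 replicate 2, 4 without AM6545 replicate 3 and 0 without any of the others), against 1. Scn8a-201 and Scn8a-205, each at 0 counts in 1 library, had no value with at least 10 counts in every library. The sign of the log2 fold change differed for Scn3a-202 with DESeq2 (-0.0055 in its Wald test, -0.0057 with its size factors), for Scn4b with limma-voom (-0.18) and for Scn3b-201 with the replicate block (0.045).

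Leaving out 1 library at a time, the sign was not stable for Scn2a (-0.093 to 0.032), Scn3a (-0.085 to 0.022), Scn8a (-0.149 to 0.019), Scn3b (-0.106 to 0.066), Scn4b (-0.12 to 0.22), Scn1a-201 (-0.050 to 0.179), Scn2a-202 (-0.053 to 0.073), Scn3a-202 (-0.10 to 0.10), Scn3b-201 (-0.14 to 0.16), Scn3b-203 (-0.015 to 0.143), Scn4b-201 (-0.13 to 0.23) and Scn8a-204 (-0.65 to 0.22). The difference in share, in percentage points, ran from -0.81 to 1.48 for Scn2b-201, from -1.48 to 0.81 for Scn2b-202, from -0.94 to 4.10 for Scn3b-201, from -0.026 to 2.13 for Scn3b-203 and from -8.87 to 3.37 for Scn8a-204. The cause was not tested. The replicate numbers were not taken to pair the libraries, since the labels name nothing shared and the correlations of same-numbered deviations ran from -0.19 to 0.39. As a hint from the data, 3 of 5 vehicle libraries matched their own number best; the block moved no member's call. Scn1a-208 had only 4.19 to 33.2 counts per library, and the part of low counts in its wide error was not tested. Neither was the part of depth in the wide errors of Scn8a-201.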
